A study of Drosophila melanogaster with 2 samples.

Results

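MBD-R2 ChIP-seq peaks were examined at 9 genes of the sex determination pathway of Drosophila melanogaster, out of 13968 protein-coding genes on the 7 chromosome arms. The genes were selected by name for their place in the pathway, with earlier results of these data known: Sxl, tra, dsx, fru, her, ix, tra2, fl(2)d and vir. The material was whole embryos, 0 to 24 h old, of a transgenic line that expresses an MBD-R2-eGFP fusion, with sonicated chromatin (200 to 800 bp) precipitated by an anti-GFP antibody. There was 1 group with 2 biological replicates, both with the fusion. The sex of the embryos was not recorded and the collection spans all embryonic stages, so neither the sexes nor the stages are separated. MBD-R2 belongs to the NSL complex, a chromatin regulator with the acetyltransferase MOF that is known from promoters of broadly expressed genes.

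In flies the dose of the X chromosome sets the choice of sex by switching on Sxl (Sex-lethal), an RNA-binding protein whose active form is made in females. An early promoter of Sxl responds to the X dose in young female embryos, and a late promoter then serves both sexes, where female splicing skips a male exon. Sxl protein steers the splicing of tra (transformer), and Tra protein, together with Tra2, steers the splicing of dsx (doublesex) and fru (fruitless), the transcription factors that carry out sexual development and courtship. The gene ix (intersex) encodes a partner of the female Dsx protein, and her (hermaphrodite) encodes a zinc-finger protein that acts in the same pathway. Both fl(2)d and vir encode subunits of the m6A RNA methyltransferase complex and are needed for female splicing of Sxl. Sxl, tra, dsx, fru, her and ix are called regulators here, and tra2, fl(2)d and vir splicing cofactors.

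The sequences below show the promoters on which the results turn, read from the RefSeq copy of the dm6 assembly in the direction of transcription. Each promoter runs from 150 bp upstream of the transcription start site (TSS) through the first 30 bases of the transcript. The last pair are windows of 75 bp on either side of the strongest Sxl summits. Capitals mark exact matches to the motifs named after the sequences.
Sxl late promoter, chrX:7098024-7098203, minus strand: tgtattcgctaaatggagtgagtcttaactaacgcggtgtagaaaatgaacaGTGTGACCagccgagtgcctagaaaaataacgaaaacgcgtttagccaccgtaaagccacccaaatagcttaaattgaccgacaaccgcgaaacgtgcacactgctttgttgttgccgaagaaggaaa
Sxl early promoter, chrX:7092854-7093033, minus strand: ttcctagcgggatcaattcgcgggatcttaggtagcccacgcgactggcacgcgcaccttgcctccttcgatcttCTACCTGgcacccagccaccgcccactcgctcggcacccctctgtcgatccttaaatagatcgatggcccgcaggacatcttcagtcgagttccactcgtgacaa
tra promoter, chr3L:16591021-16591200, minus strand: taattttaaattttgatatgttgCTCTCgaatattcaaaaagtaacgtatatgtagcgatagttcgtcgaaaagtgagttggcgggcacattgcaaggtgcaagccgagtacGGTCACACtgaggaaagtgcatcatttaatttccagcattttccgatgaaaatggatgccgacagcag
her promoter, chr2L:16677035-16677214, plus strand: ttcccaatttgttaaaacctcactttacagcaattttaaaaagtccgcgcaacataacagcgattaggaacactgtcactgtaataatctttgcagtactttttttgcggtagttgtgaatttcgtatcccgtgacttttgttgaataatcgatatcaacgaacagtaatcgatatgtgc
dsx 5′-most promoter, chr3R:7967379-7967558, minus strand: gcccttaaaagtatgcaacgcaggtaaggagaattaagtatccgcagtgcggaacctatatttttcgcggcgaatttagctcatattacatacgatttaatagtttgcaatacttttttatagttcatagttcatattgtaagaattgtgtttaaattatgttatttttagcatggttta
Sxl intron, strongest summit, chrX:7096608-7096758, minus strand: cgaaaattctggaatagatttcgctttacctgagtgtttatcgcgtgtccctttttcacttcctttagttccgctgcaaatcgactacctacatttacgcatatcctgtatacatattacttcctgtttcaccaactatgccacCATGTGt
Sxl intron, second summit, chrX:7095676-7095826, minus strand: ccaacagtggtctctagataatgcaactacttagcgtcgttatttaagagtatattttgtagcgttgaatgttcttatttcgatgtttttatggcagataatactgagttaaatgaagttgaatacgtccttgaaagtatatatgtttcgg

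The motifs were searched on both strands, except the TATA box (TATAAA), which was searched on the sense strand. The DNA replication-related element was taken as TATCGATA and the core of Motif 1 as GGTCACAC. The E-box was taken as CANNTG, with the form CAGCTG, which it includes, also counted alone. The GAGA element was taken as GAGAG. The TAGteam site, bound by the early activator Zelda, was taken as CAGGTAG. The Sxl late promoter held a Motif 1 core whose first base lies 98 bp upstream of the TSS, on the opposite strand. The tra promoter held one 38 bp upstream, on the sense strand, along with a GAGA element. Motif 1 cores were present in 6.29% of all 13968 promoters of protein-coding genes in windows of the same length. The Sxl early promoter held a TAGteam site 75 bp upstream of its TSS, on the opposite strand, a motif present in 1.05% of these promoters. That share takes a single promoter per gene, whereas the early promoter is at an internal TSS. Of the 9 genes 0 held the site at the 5′-most promoter. The windows of her, dsx and the second Sxl summit held none of the motifs, and that of the strongest Sxl summit held an E-box, which 55.5% of windows around main-list summits hold. No 5′-most promoter of the 9 genes held the replication-related element or a TATA box in its window, against 8.05% and 22.3% of all promoters.

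A gene was called when a summit of the main list, which the authors made from both replicates, lay within 500 bp of one of its TSSs. Of the 9 genes 7 were called, against 44.0% of protein-coding genes. The genes without such a summit were dsx and fru, the transcription factors at the end of the splicing cascade. Of the regulators 4 of 6 were called and of the splicing cofactors 3 of 3. With 9 genes chosen by name this is a description of these lists, and no test was made. In the authors' conservative list 6 were called (39.7% of all protein-coding genes), in the list of replicate 2 again 7 (43.5%), and in the list of replicate 1, which has 4113 peaks against 7542, 5 were called (33.2%). The 5 genes called in every list were tra, ix, tra2, fl(2)d and vir. Sxl had no promoter call in the replicate 1 and conservative lists, and her had none in the replicate 1 list.

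**Figure D1:**
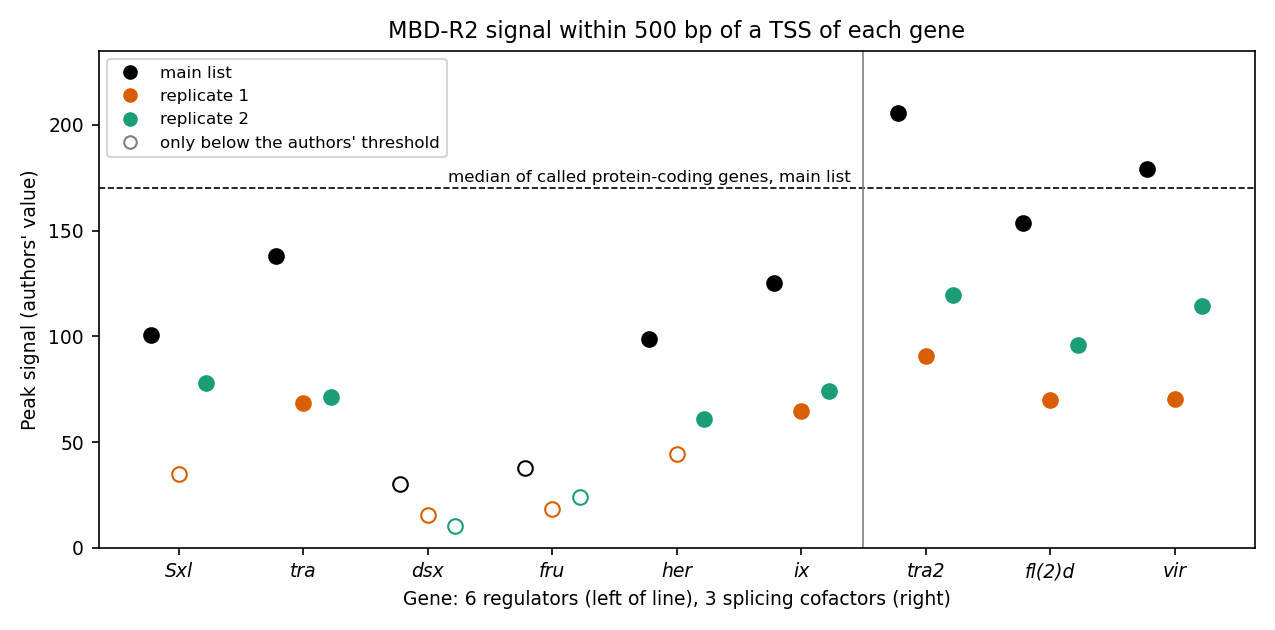
Signal of the strongest peak within 500 bp of a TSS of each gene (y axis, the authors' signal value) in the main list and in each replicate (colours); filled points are peaks of the thresholded lists and open points are peaks found only in the rankings before thresholding. The 3 splicing cofactors sit at 205.6, 153.6 and 178.9 in the main list, above the 4 called regulators, and dsx and fru have open points only. The open Sxl point of replicate 1 is at the 5′-most TSS, while the filled Sxl points are at the intermediate TSS, and the dashed line is the median of 170 over called protein-coding genes.

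The signal value is the authors' own score for a peak, and neither its scaling nor any adjustment of the replicates for depth is stated. The called regulators had main-list promoter signals from 98.7 to 138 (median 113), and the splicing cofactors from 154 to 206 (median 179), so these ranges did not overlap. The lower end of the cofactor range is fl(2)d, whose summit was nearer to a TSS of the neighbour CG13339 (106 bp against 199 bp). That value cannot be assigned to fl(2)d by distance. The median of all 6151 called protein-coding genes was 170, with quartiles at 113 and 260. Of the called members tra2 and vir were above that median, and Sxl, tra, her, ix and fl(2)d below it. These medians leave out dsx and fru, which have no main-list value. Among the called genes the order by class was the same within each replicate, with fl(2)d the lowest cofactor in both. In replicate 1 tra and ix, the only regulators called there, had 68.5 and 64.8. The values of tra2, fl(2)d and vir were 90.9, 69.8 and 70.4, so tra and fl(2)d lay close to each other. In replicate 2 the regulators lay between 61.1 and 77.9 and the cofactors between 96.0 and 119.5.

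Sxl, at X from 7074550 to 7098053 (minus strand, 23.5 kb), has 4 annotated TSSs over 25 transcripts. Of protein-coding genes with 4 or more TSSs, 68.4% were called. The late promoter comprises the 5′-most TSS, used by 18 transcripts, and another 285 bp downstream, used by 1. The early TSS lies 5170 bp downstream of the 5′-most one, inside the first intron of most late transcripts. The 4 early transcripts splice from the first exon directly to an exon at 7087614 to 7087659 and so skip the cassette exon at 7088578 to 7088767, which in this annotation is held by 9 of the 25 transcripts and corresponds to the male exon. An intermediate TSS, 987 bp downstream of the 5′-most one, gives 2 transcripts, which both hold the cassette exon.

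Neither the late nor the early Sxl promoter had a summit within 500 bp in the main, conservative or replicate lists. The gene was called through the intermediate TSS. The strongest Sxl summit had a main-list signal of 100.5 and lay in an intron, 383 bp downstream of that TSS, 1370 bp downstream of the 5′-most TSS and 3800 bp upstream of the early TSS. A second summit, with a signal of 100.03, lay 1315 bp downstream of the intermediate TSS and 2868 bp upstream of the early one. Both thus fall between the late and the early promoter, in the stretch shown by the last pair of sequences above. The weakest, with 58.6, lay in an intron 6153 bp downstream of the early TSS, and the nearest annotated TSS, at 877 bp, was that of the microRNA gene mir-4956.

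These Sxl peaks came mainly from replicate 2. There the 3 summits had signals of 77.9, 78.0 and 46.7, and all passed the threshold. Replicate 1 had no Sxl peak in its thresholded list. In its ranking before thresholding the overlapping peaks had signals of 23.0 and 27.1 under the strongest and the second summit, at irreproducible discovery rates (IDR, the authors' measure of how consistently a peak ranks) of 0.204 and 0.674. Under the third summit replicate 1 had no peak at all. Of the 3 peaks only the second was kept in the conservative list.

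Below the threshold there was signal at the 5′-most Sxl TSS. The ranking behind the main list held a peak of 45.5 with its summit 103 bp upstream, at an IDR of 0.367. Its signal was above 89.9% of the peaks of that ranking. In the ranking behind the conservative list the IDR of this peak was 0.0948. Replicate 1 had a ranked peak of 35.1 there, 63 bp upstream (IDR 0.459), and replicate 2 one of 21.5, 13 bp downstream (IDR 0.0272). The peak of 35.1 was the strongest ranked peak of replicate 1 at any Sxl TSS. It was also above the 23.0 and 27.1 of replicate 1 under the intronic summits. In replicate 2 the order was reversed, with 21.5 at the TSS against 77.9 and 78.0 at those summits. At the early TSS the main ranking held a peak of 14.8, 215 bp upstream, at an IDR of 0.872, below the median of 17.2 of that ranking, and neither replicate's own ranking held a peak. In whole embryos of mixed age, binding in fewer cells and weaker binding per cell cannot be told apart.

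**Figure D2:**
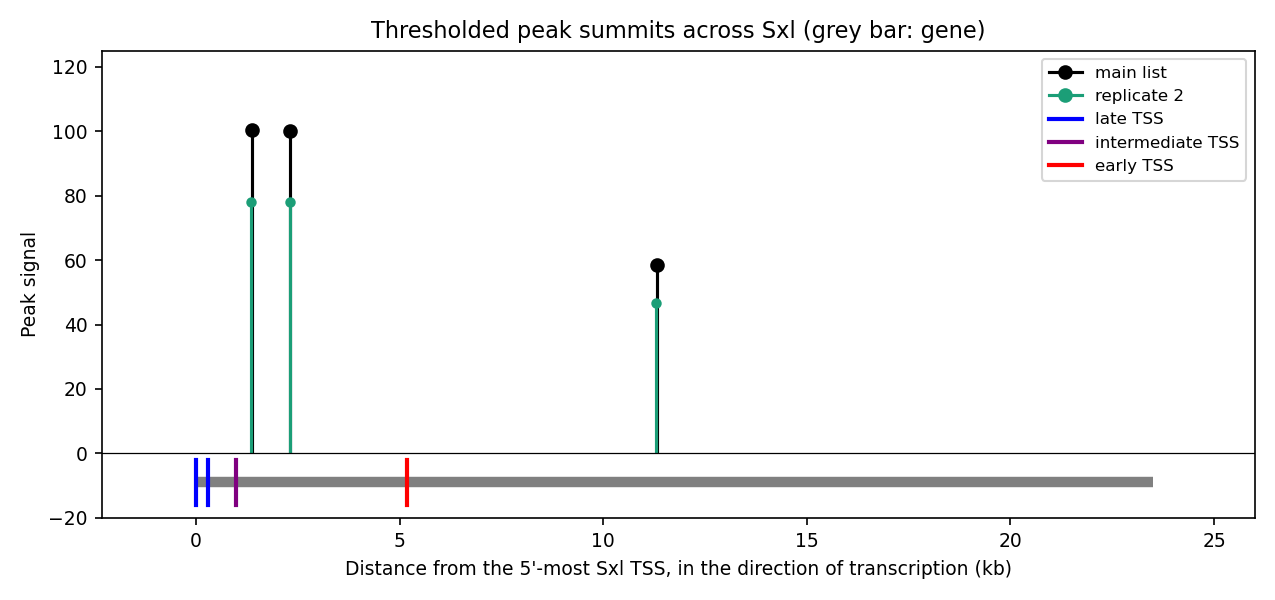
Summits of the thresholded peaks across Sxl: the x axis gives the distance from the 5′-most TSS along transcription (kb), the y axis the authors' signal value, and coloured ticks on the gene bar the late, intermediate and early TSSs. The 2 main-list summits of 100.5 and 100.03 stand between the intermediate and the early TSS, replicate 2 has a summit at each main-list position, and replicate 1 has none in its list.

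The target of Sxl, tra, is a short gene (3L, 16590059 to 16591050, minus strand) with 1 TSS, and had a peak centred on it. Its main-list signal was 137.9, with the summit 2 bp upstream of the TSS. Replicate 1 gave 68.5 with the summit 18 bp downstream, and replicate 2 gave 71.1 with the summit 18 bp upstream. This was the member whose replicates differed least at the promoter, by a ratio of 1.04. Another pair of main-list summits, 156.3 and 155.3, lay beyond the 3′ end of tra, 40 and 275 bp from a TSS of the neighbour l(3)73Ah.

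For her (2L, 16677185 to 16679691, plus strand, 2.51 kb) the main list held a peak of 98.7 with its summit 5 bp downstream of the single TSS. Replicate 2 gave 61.1, with the summit 34 bp upstream. The replicate 1 ranking gave 44.3, with the summit 144 bp downstream, at an IDR of 0.0917, which did not pass. The divergent gene Trpgamma starts 484 bp upstream of her, and the summit is nearer to her. Downstream of her, a peak at a TSS shared by grp and squ was present in the conservative list (104.5) and in both replicate lists (44.3 and 10.6 in replicate 1, 58.9 in replicate 2). It was not in the main list, whose ranking gave it an IDR of 0.703.

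The gene ix (2R, 11359437 to 11360163, minus strand, 0.727 kb) lies among 3 other protein-coding genes that start within 2 kb. Its own summit, 101 bp downstream of its TSS, had a main-list signal of 125.4, with 64.8 in replicate 1 and 74.1 in replicate 2. Stronger peaks flank it. One of 222.6 lay 94 bp from a TSS of san, and one of 199.0 lay 3 bp from a TSS of CG12384. A further summit of 23.4 lay 295 bp from the san TSS. The ix summit was thus weaker than the strongest one at each of these neighbours.

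Among the splicing cofactors, tra2 (2R, 14602004 to 14604337, minus strand) had the highest promoter signal of the 9 genes. Its peak of 205.6 had its summit 85 bp downstream of the 5′-most TSS, with 90.9 in replicate 1 (61 bp downstream) and 119.5 in replicate 2 (122 bp downstream). It ranked above 62.4% of called genes. The neighbours Blos1 and CG12868 carried peaks of 210.4 and 191.3, with summits 38 and 157 bp from their TSSs.

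The gene vir (2R, 23360192 to 23366355, minus strand, 6.16 kb) had a promoter signal of 178.9, with 70.4 in replicate 1 and 114.4 in replicate 2. The summit lay 134 bp downstream of its TSS. A separate peak of 151.7, 588 bp upstream of vir, lay 77 bp from a TSS of Ice1, and one of 99.0 beyond the 3′ end lay 67 bp from a TSS of Mthfs.

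For fl(2)d (2R, 13819624 to 13824553, minus strand, 4.93 kb) the signal was 153.6 in the main list, 69.8 in replicate 1 and 96.0 in replicate 2. The summit lay 199 bp upstream of its TSS and only 106 bp from that of CG13339, a divergent gene that starts 305 bp away. The peak of this shared promoter cannot be assigned to fl(2)d by distance, and in replicate 1 the summit was farther still, 343 bp upstream. Of the 7 called genes fl(2)d was the only one whose promoter summit was nearer to another gene. The conservative list also held a summit of 105.7, 410 bp upstream of the fl(2)d TSS. It lay beyond the CG13339 TSS, 105 bp from it. Replicate 2 also held an intronic peak of 65.3, 2238 bp downstream of the TSS, which was at an IDR of 0.0465 in the main ranking.

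**Figure D3:**
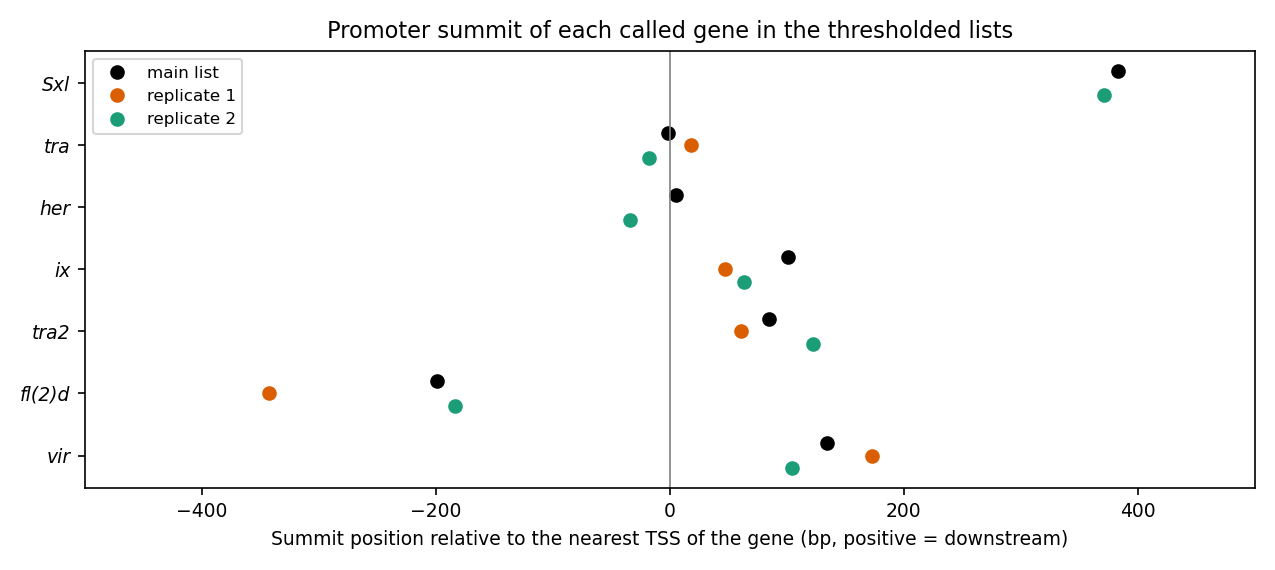
Position of the promoter summit of each of the 7 called genes relative to the nearest TSS of that gene (x axis, bp, positive is downstream), in the main list and in each replicate's thresholded list (colours). The summits of tra and her lie within 34 bp of the TSS, and those of ix, tra2 and vir 47 to 173 bp downstream. That of Sxl lies 371 and 383 bp downstream, and that of fl(2)d 184 to 343 bp upstream, on the side of CG13339.

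No thresholded list held a peak in dsx (3R, 7924323 to 7967408, minus strand, 43.1 kb) or within 2 kb of it, while 67.9% of protein-coding genes of 20 to 50 kb had one in the main list. The nearest main-list summit outside, with a signal of 289.5, lay 3964 bp downstream of the gene and 60 bp from a TSS of CG10445. Before thresholding, the main ranking held a peak of 30.2 near the 5′-most dsx TSS, 410 bp downstream, at an IDR of 0.585. Replicate 1 had 13.8 (348 bp downstream) and replicate 2 had 10.2 (447 bp downstream) there, with IDRs of 0.863 and 0.848. At the second TSS, 4622 bp farther, a ranked peak of 15.3 was found in replicate 1 only. None of these ranked peaks passed the authors' threshold, and the depth behind the lists is unknown.

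The gene fru (3R, 18414273 to 18545586, minus strand) spans 131 kb and has 7 TSSs, none of which had a summit within 500 bp in any thresholded list. For genes of 50 kb and more the promoter call was made in 32.9%, and 64.5% had a summit in the gene or within 2 kb. For genes with 4 or more TSSs, of any length, the call was made in 68.4%. The 5′-most fru TSS, from which 8 of 15 transcripts start, had no peak within 500 bp in the rankings of the main list or of either replicate. Below the threshold, the TSS 106815 bp downstream had ranked peaks of 37.7 in the main ranking, 16.7 in replicate 1 and 23.9 in replicate 2, with IDRs of 0.705, 0.567 and 0.693. The TSS at 95332 bp had 37.6 in the main ranking.

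Inside fru the main list held intronic summits of 84.3 and 53.7, both in the downstream part of the gene. The stronger lay 1999 bp downstream of the last TSS, and the weaker 1737 bp downstream of the TSS before it. Replicate 2 had the stronger one in its list (70.7), and under the weaker its ranked peak of 38.3 had an IDR of 0.64. In replicate 1 neither had a ranked peak. Replicate 2 also listed a summit of 46.3 that lay 663 bp upstream of the last TSS, with an IDR of 0.0176 in the main ranking. The other main-list peak, 115.5, lay beyond the 3′ end of fru and 356 bp from a TSS of CG31122, and was present in all 4 thresholded lists.

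**Figure D4:**
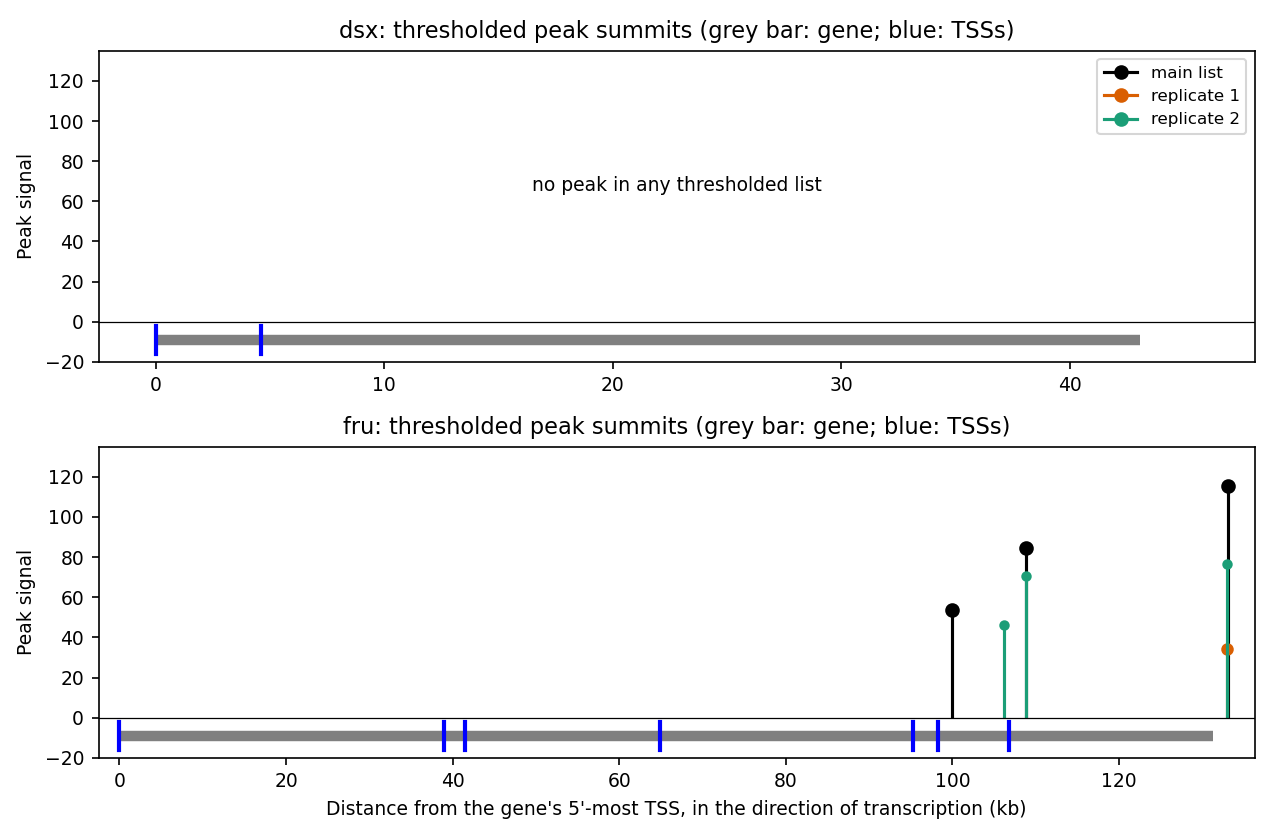
Summits of the thresholded peaks across dsx (upper) and fru (lower): the x axes give the distance from the 5′-most TSS along transcription (kb), the y axes the authors' signal value, and blue ticks mark the 2 and 7 TSSs. No summit stands in dsx, and the fru summits of 84.3 and 53.7 lie in its downstream part, none of them within 500 bp of a TSS.

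Counting every summit in a gene or within 2 kb of it, 8 of the 9 genes had at least 1 in the main list, against 58.2% of protein-coding genes, and dsx had none. The number was also 8 in the conservative list (53.0% of all protein-coding genes) and in replicate 2 (57.8%), and it was 7 in replicate 1 (46.2%). The 9 genes held 21 such main-list summits, 14 at the regulators and 7 at the splicing cofactors. Of the 21 summits, 12 were nearer to a TSS of another gene, 7 of them at the regulators and 5 at the cofactors. The conservative list had 18, replicate 2 had 23 and replicate 1 had 14. All 21 main-list peaks overlapped a ranked peak of replicate 2 and 18 overlapped one of replicate 1. The 3 without a replicate 1 peak were the weakest Sxl peak and both intronic fru peaks. Where both replicates had a peak, replicate 2 was the higher in 18 of 18, with a median ratio of 1.53 and a range of 1.03 to 3.39. Replicate 2 was also higher over all called protein-coding genes, with a median promoter signal of 107 against 79 in replicate 1, each over the genes called in that replicate's own list. Each ratio used the strongest overlapping ranked peak, so some ratios are repeated where neighbouring main-list summits overlap the same replicate peak. Some also compare different summits. The ix peak of 23.4, 838 bp upstream, was paired with 162.2 in replicate 2, whose summit lay 639 bp upstream. The summit of replicate 2 at 839 bp upstream had 7.0. The highest ratio was at the strongest Sxl summit.

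Counted at the 5′-most TSS alone, Sxl was not called and 6 genes were. The 6 genes called at their 5′-most TSS (42.0% of all protein-coding genes) were between 0.727 and 6.16 kb long, and Sxl, dsx and fru were 23.5, 43.1 and 131 kb. Sxl, dsx, fru and tra had no other protein-coding gene starting within 2 kb of the 5′-most TSS, while the other five had 1 to 3. Among all protein-coding genes the called share was 42.5% under 5 kb, 52.3% from 5 to 20 kb, 43.4% from 20 to 50 kb and 32.9% at 50 kb and more, counted at any TSS.

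A wider list of 46 genes that act with the 9 was drawn up for their roles in the pathway, also with earlier results of these data known, and 25 of them were called (54.3%, against 44.0% of all protein-coding genes). By role, of 12 genes of Sxl splicing and m6A methylation 11 were called. The strongest were Hakai, a subunit of the methyltransferase complex (353.0, with 151.4 in replicate 1 and 214.5 in replicate 2), and Ythdc1, the nuclear reader of m6A (303.0, with 125.7 and 187.8). The summit at Ythdc1 was nearer to a TSS of CG12010, 45 bp away against 67 bp. The gene without a call was snRNP-U1-70K, a U1 subunit that interacts with Sxl protein, and the replicate 2 list did hold a peak of 103.4 at it.

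All 4 splicing partners of Tra and Tra2 were called, against 44.0% of all protein-coding genes. Doa, a kinase of SR proteins, had 139.0 in the main list, with 55.9 in replicate 1 and 83.9 in replicate 2. The 3 genes listed as direct Sxl targets or translation partner were also called. The stronger of them were nanos (345.8), a germline determinant, whose summit was 405 bp from its own TSS and 21 bp from CG11779, and msl-2 (280.2), the dosage compensation gene that Sxl represses in females. The msl-2 summit lay 20 bp from a TSS of ND-PDSW and 25 bp from its own. Of 6 regulators of the early Sxl promoter 5 were called in the main list, led by the corepressor gro (351.7) and the bHLH activator da (142.0). The conservative list and each replicate list called only 3 of them, and these were not the same 3 genes in every list. The repressor dpn had no call. The shares of all protein-coding genes were 39.7% in the conservative list, 33.2% in replicate 1 and 43.5% in replicate 2.

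None of the 4 X-linked signal elements was called. These are the genes whose dose is read by the early Sxl promoter. In the main ranking upd1, a JAK/STAT ligand, had a peak of 33.8 (IDR 0.621), run, a Runt-domain factor, 30.4 (IDR 0.437), and sisA, a bZIP activator, 21.1 (IDR 0.515), and sc, a bHLH activator, had none. None of the 9 targets and partners of dsx and fru was called either, among them Lgr3, a relaxin receptor, and the yolk protein gene Yp1. Of 5 genes of germline sex only Phf7, a histone reader of male germ cells, was called (107.2), with 52.9 in the replicate 1 list and no peak in that of replicate 2, while bam and otu were without a call. In the replicate 1 list 2 of these 5 genes were called (33.2% of all protein-coding genes), and in the replicate 2 list 0 were (43.5%). Among 3 other genes of the DMRT family, to which dsx belongs, dmrt11E was called (63.3, with 38.6 in replicate 2 and no peak in the replicate 1 list), and dmrt93B and dmrt99B were not. Each main-list count stands beside the share of 44.0% over all protein-coding genes. The groups are small and were not tested against each other or against that share.

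**Figure D5:**
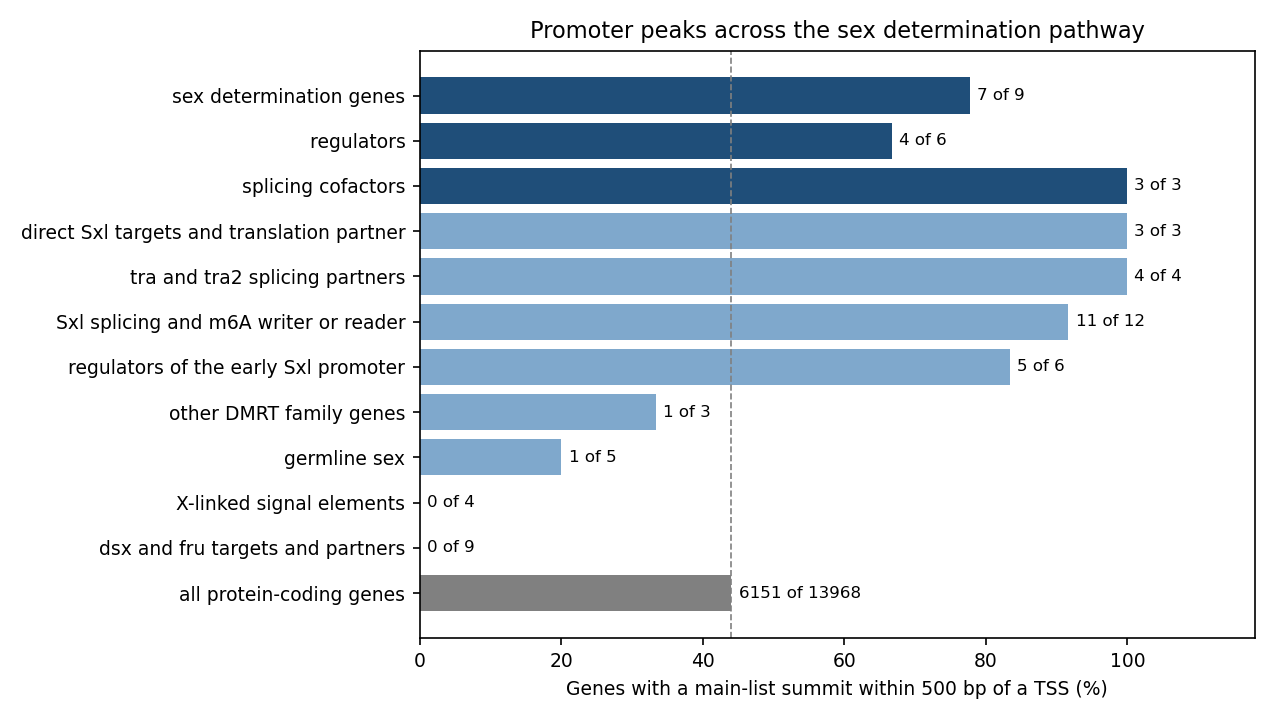
Share of genes with a main-list summit within 500 bp of a TSS (x axis, %) for the 9 sex determination genes, their classes, the groups of the wider pathway list and all protein-coding genes (bottom bar and dashed line); counts stand beside the bars. The splicing groups reach 11 of 12 and 4 of 4, while the X-linked signal elements and the targets and partners of dsx and fru are at 0 of 4 and 0 of 9.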

How the data were processed

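Peak lists on dm6 were used as deposited: a main, a conservative and 2 replicate lists thresholded on IDR, and the rankings before thresholding. The sources used here do not give aligner, caller or depth. The signal of each peak is the authors' value. The deposited score is a scaled IDR, at least 830 in thresholded lists. Deposited rankings also give each IDR as a −log10 value. Both assembly and replicate number are stated per the labels. TSSs came from Ensembl release 115, and peak ends lay within the chromosome lengths of the RefSeq sequence. Summits are peak start plus the deposited offset, and replicate signals beside main-list peaks came from overlapping ranked peaks. Calls were tested on simulated peaks (Python 3.11.15, pandas 2.3.3). No test between groups was possible with 1 group. Named genes were all 9 members and, per pathway group, the 2 called genes of highest signal and up to 2 uncalled genes in alphabetical order; sisA and upd1 were added after their values were seen. One gene that this rule names is not reported here. Neighbours were named where nearer to a member's summit. Members, lists and motifs were chosen with earlier results of these data known. Alternatives were the other lists, IDR limits of 0.005 and 0.05, TSS distances of 250 and 1000 bp, only the 5′-most TSS, margins of 1 and 5 kb, and the strongest summit per repeated interval. Control libraries were not analysed here.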

Additional observations from a re-analysis of the deposited data

How the results depend on the processing

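The count of called members was 7 of 9 in the main list and 5 to 7 with either replicate's list alone. For the regulators the count was 4 in the main list and 2 to 4 with either replicate left out: without replicate 2 it was 2, because Sxl and her have no thresholded promoter peak in replicate 1. The splicing cofactors stayed at 3 of 3 in all 9 alternatives. Of 77 alternative values over all results, 76 were within 1.5 times the main value and 1, the regulators without replicate 2, was not. The 77 include the late and early Sxl promoter values, which were 0 at every setting, so no ratio applies to them. They also include the share of all protein-coding genes, and the splicing cofactors, which could not exceed 3. Without replicate 2 the number of summits in or near the members was 14 against 21, at that limit. With the 5′-most TSS alone or with a 250 bp window Sxl was not called, which left 6 members. The shares of all protein-coding genes at these settings were 42.0% and 39.5%. No summit lay at the late or the early Sxl promoter in any alternative, including a 1000 bp window and an IDR limit of 0.05 on the main ranking. That limit was not applied to the replicate rankings, where the replicate 2 peak of 21.5 at the 5′-most Sxl TSS has an IDR of 0.0272. With a margin of 5 kb all 9 genes had a summit, the one at dsx lying at CG10445. The share of all protein-coding genes was not computed at this margin, so the count has no background to be read against. The number of reads is unknown, so a missing peak shows only that none passed the authors' threshold. With 1 group and no tests, no paired analysis was possible because there is no second group to pair.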
